A study of Arabidopsis thaliana with 6 samples.

Results

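The tapetum transcription factor cascade comprised 8 of the 33610 genes counted in each library, taken by gene identifier and described in the order of the cascade. They were DYT1 (AT4G21330), TDF1 (AT3G28470), AMS (AT2G16910), bHLH010 (AT2G31220), bHLH089 (AT1G06170), bHLH091 (AT2G31210), MYB80 (AT5G56110) and MS1 (AT5G22260). RNA-seq had been made from Arabidopsis thaliana inflorescences of 3 genotypes with 2 libraries each, in a study of the genes that the MADS transcription factor SEPALLATA3 (SEP3) regulates in the flower. The tissue was the inflorescence meristem together with young flower buds up to stages 10 to 11, so each library was a bulk of meristem and buds of several stages, whose organs may differ between genotypes. The genotypes were the sep1 sep2 double mutant, the sep1 sep2 sep3 mutant (the triple mutant), and sep1 sep2 sep3 expressing SEP3, for which each library came from a separate transgenic line (line 1 and line 2). All 6 libraries therefore carried sep1 and sep2, and no wild type library was analysed here. The promoter driving SEP3 in the lines was not given in the sources used here, and nothing in the labels says whether the libraries of 1 genotype came from separately grown plants.

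The tapetum is the innermost layer of the anther wall and encloses the developing meiocytes and microspores. It supplies enzymes that release microspores from callose, the precursors of the sporopollenin wall and the lipids and proteins of the pollen coat, and then it degenerates. In Arabidopsis a chain of transcription factors drives its differentiation: the bHLH protein DYT1 activates the MYB protein TDF1, which acts with AMS, and MYB80 and the PHD finger protein MS1 follow. The bHLH010, bHLH089 and bHLH091 proteins are closely related, act redundantly and can pair with DYT1. Plants that lack DYT1, TDF1, AMS, MYB80 or MS1 are male sterile.

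The bHLH trio is shown as sequence because reads from near-identical copies can be assigned to the wrong gene. Over the annotated coding sequences, bHLH010 and bHLH089 were 72.5% identical, bHLH010 and bHLH091 63.5%, and bHLH089 and bHLH091 63.1%. The most alike stretch of 60 coding bases in all 3 genes follows, from the RefSeq TAIR10.1 assembly at chr2:13304410-13304469 for bHLH010, chr1:1885349-1885408 for bHLH089 and chr2:13297867-13297926 for bHLH091, read 5′ to 3′ on the coding strand. Capitals mark the 12 positions that are not the same base in all 3.
bHLH010: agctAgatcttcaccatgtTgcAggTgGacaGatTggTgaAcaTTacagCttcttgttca
bHLH089: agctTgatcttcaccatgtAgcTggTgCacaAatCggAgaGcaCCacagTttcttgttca
bHLH091: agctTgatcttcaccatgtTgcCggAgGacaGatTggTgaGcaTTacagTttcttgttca
The longest run of identical bases between any pair of the trio was 21, and 99.3% of the 31-base words of bHLH010 and 100% of those of the other 7 members occurred nowhere else in the genome. The authors also discarded reads that mapped to several places, so the 3 genes were counted apart.

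Because DYT1, AMS and the bHLH trio belong to the bHLH family, whose proteins bind the E-box (CANNTG, a pattern that reads alike on both strands), the promoters of the members were searched for it. In the window from 250 bases before to 50 bases after the annotated start, 2 of 8 members held an E-box. Of the promoters of all 27443 protein-coding nuclear genes, 61.7% did. The 2 members were bHLH010 and MS1, whose 250 bases before the start are printed with the E-box in capitals, from RefSeq TAIR10.1 at chr2:13302416-13302665 and, on the minus strand, chr5:7370296-7370545.
bHLH010: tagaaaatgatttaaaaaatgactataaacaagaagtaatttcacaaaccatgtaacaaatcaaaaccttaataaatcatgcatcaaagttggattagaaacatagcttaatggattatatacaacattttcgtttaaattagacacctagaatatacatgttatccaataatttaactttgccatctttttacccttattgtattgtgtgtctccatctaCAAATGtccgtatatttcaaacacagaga
MS1: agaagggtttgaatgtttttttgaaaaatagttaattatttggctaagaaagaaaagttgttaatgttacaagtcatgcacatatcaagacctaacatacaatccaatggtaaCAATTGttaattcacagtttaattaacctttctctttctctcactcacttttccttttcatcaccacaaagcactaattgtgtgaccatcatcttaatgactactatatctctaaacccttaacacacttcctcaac
Within 1000 bases before the start, 7 of 8 members held an E-box, bHLH089 being the exception, against 96.2% of the protein-coding nuclear genes. The CArG box, the motif that MADS proteins bind, was searched only in its strict form, CC and GG around a run of A or T. That form was in the 1000 bases of none of the 8 members and of 7.21% of the protein-coding nuclear genes, a difference that was not tested. The study scored binding sites by weighted motifs and describes non-canonical CArG boxes in the KNU promoter. Such sites were not searched for here, so whether the members hold sites that SEP3 can bind was not tested. The models of DYT1, TDF1, AMS and MYB80 are annotated from the start codon, so their windows lie closer to the coding sequence than those of the other members.

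The libraries held 24000063 to 31263376 counted reads. SEP3 itself was at 130 and 136 CPM (counts per 1000000 counted reads, with the library total scaled by its TMM factor) in sep1 sep2, at 150 and 151 CPM in the libraries labelled triple mutant, and at 489 and 332 CPM in lines 1 and 2. SEP3 was thus not lower in the libraries labelled triple mutant (log2 fold change 0.17, edgeR adjusted p = 0.50), and gene counts cannot show whether the transcript was functional, so every direction below rests on the labels. SEP2 was at 79.2 and 44.3 CPM in sep1 sep2, at 15.5 and 11.5 CPM in the libraries labelled triple mutant and at 16.6 and 108 CPM in lines 1 and 2, although all genotypes carry sep2. SEP1 was at 2.61 and 2.00 CPM in sep1 sep2, at 5.598 and 4.71 CPM in the libraries labelled triple mutant and at 2.15 and 4.11 CPM in lines 1 and 2, and it was higher in the libraries labelled triple mutant than in sep1 sep2 (log2 fold change 1.16, edgeR adjusted p = 0.0289). The stamen and petal identity genes AP3 and PI summed to 224 to 323 CPM in every library. Of 5 late pollen markers, AGL65 was at 2.83 to 5.97 CPM, AGL66 was at 0 in all 6 libraries, and VGD1, DUO1 and AGL104 had 0 to 36 counts a library.

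All 8 members fell in the libraries labelled triple mutant relative to sep1 sep2, by 3.51-fold (TDF1) to 12.5-fold (MYB80) in mean CPM. Each was differentially expressed (DE), which means a log2 fold change above 1 or below -1 with an adjusted p under 0.05. As background, 7.3% of the 25458 genes tested were DE lower in this comparison. The median log2 fold change of the members was -2.77, against -0.03 over all genes tested. All 8 members also had groups that did not overlap, as did 55.1% of all genes tested. Since buds were bulked, fewer tapetal cells and less RNA per tapetal cell cannot be told apart here or in any later comparison.

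**Figure D1:**
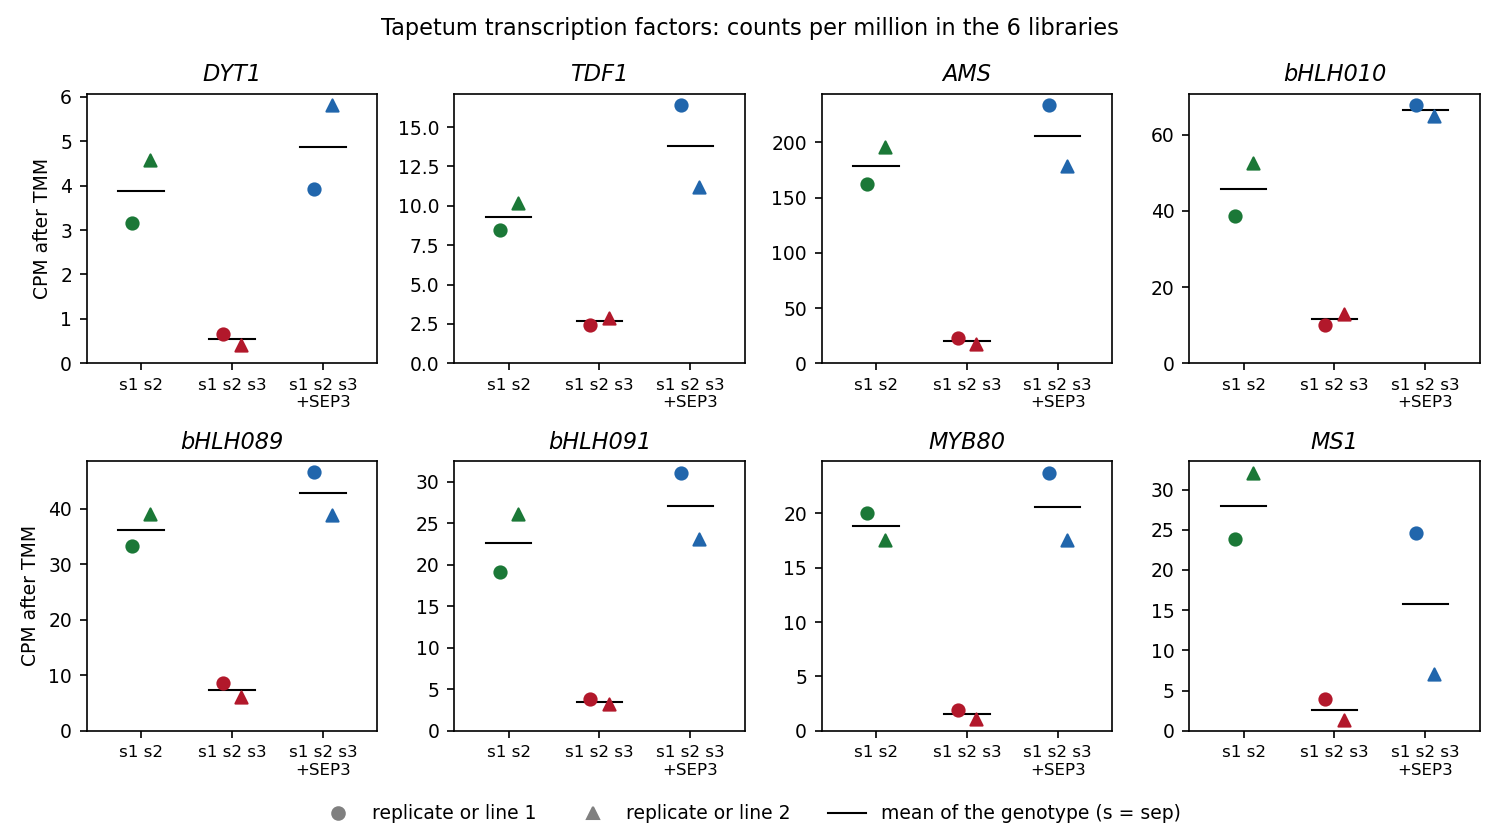
Level of each of the 8 members in each of the 6 libraries, in CPM after TMM scaling on linear axes that start at 0, with circles for replicate or line 1, triangles for replicate or line 2 and a line at the mean of each genotype (s stands for sep). In every panel the 2 libraries labelled triple mutant lie below the other 4, and for MS1 line 2, at 7.10 CPM, lies apart from line 1, at 24.5 CPM.

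DYT1, at the head of the cascade (chr4:11349922-11350694, plus strand), had the fewest counts of the members in every library. Its level was 3.17 and 4.58 CPM in sep1 sep2, 0.668 and 0.407 CPM in the libraries labelled triple mutant, and 3.93 and 5.81 CPM in lines 1 and 2. The 2 low libraries stood on 16 and 12 counts, against 80 to 144 counts in the other 4, so their values carry the largest counting error among the members. DYT1 fell by 2.86 on the log2 scale (SE 0.390, edgeR adjusted p = 1.35e-04).

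TDF1, the R2R3 MYB that DYT1 activates (chr3:10674508-10675724, minus strand), changed least in fold. It was at 8.47 and 10.2 CPM in sep1 sep2, at 2.42 and 2.88 CPM in the libraries labelled triple mutant, and at 16.4 and 11.2 CPM in lines 1 and 2. Both lines lay above both sep1 sep2 libraries. TDF1 fell by 1.81 on the log2 scale (SE 0.239, edgeR adjusted p = 1.01e-04), keeping 28.5% of its sep1 sep2 level.

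AMS (chr2:7331721-7334254, plus strand), the bHLH protein at the centre of the cascade that activates genes of wall and pollen coat formation, had the highest level per kilobase of exon in every library. It was at 162 and 196 CPM in sep1 sep2, at 22.9 and 17.7 CPM in the libraries labelled triple mutant, and at 234 and 179 CPM in lines 1 and 2. The lines overlapped with sep1 sep2, and both low libraries lay far below the other 4. AMS fell by 3.14 on the log2 scale (SE 0.164, edgeR adjusted p = 5.06e-08). A long noncoding RNA, AT2G06795, lies on its opposite strand over 258 of its exon bases, and the end of UBC23 (AT2G16920) over 29, so reads from these genes could not be told from AMS there if counting ignored strand.

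The bHLH trio fell together. bHLH010 (chr2:13302666-13304869, plus strand) was at 38.7 and 52.6 CPM in sep1 sep2, at 10.0 and 13.02 CPM in the libraries labelled triple mutant, and at 67.9 and 64.9 CPM in lines 1 and 2. bHLH089 (chr1:1884981-1886904, minus strand) was at 33.3 and 39.0, 8.61 and 6.17, and 46.6 and 38.9 CPM in the same order. bHLH091 (chr2:13296143-13298277, plus strand), which lies within 10 kb of bHLH010, was at 19.1 and 26.1, 3.84 and 3.19, and 31.1 and 23.1 CPM. In every one of them the 2 libraries labelled triple mutant were the lowest of the 6. The log2 fold changes were -1.98 (SE 0.162) for bHLH010, -2.30 (SE 0.169) for bHLH089 and -2.69 (SE 0.204) for bHLH091, with edgeR adjusted p = 1.22e-06, 4.87e-07 and 6.06e-07.

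MYB80 (chr5:22719191-22720664, plus strand), which activates sporopollenin synthesis genes, fell furthest. Its level was 20.04 and 17.6 CPM in sep1 sep2, 1.92 and 1.09 CPM in the libraries labelled triple mutant, and 23.7 and 17.5 CPM in lines 1 and 2. MYB80 kept 10.2% and 5.77% of its mean sep1 sep2 level in the 2 low libraries, which differed less from each other than either did from the rest. It fell by 3.66 on the log2 scale (SE 0.248, edgeR adjusted p = 2.09e-07).

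MS1 (chr5:7367635-7370295, minus strand), the PHD finger protein of the late tapetum, was the least even member. It was at 23.8 and 32.02 CPM in sep1 sep2, at 3.93 and 1.36 CPM in the libraries labelled triple mutant, and at 24.5 CPM in line 1 but 7.10 CPM in line 2. The second of the low libraries differed from the first by -1.48 on the log2 scale, the widest gap between replicates of the double or triple mutant for any member. MS1 fell by 3.43 on the log2 scale (SE 0.486, edgeR adjusted p = 1.85e-04), and leaving out 1 library at a time gave log2 fold changes of -4.36 to -2.83.

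**Figure D2:**
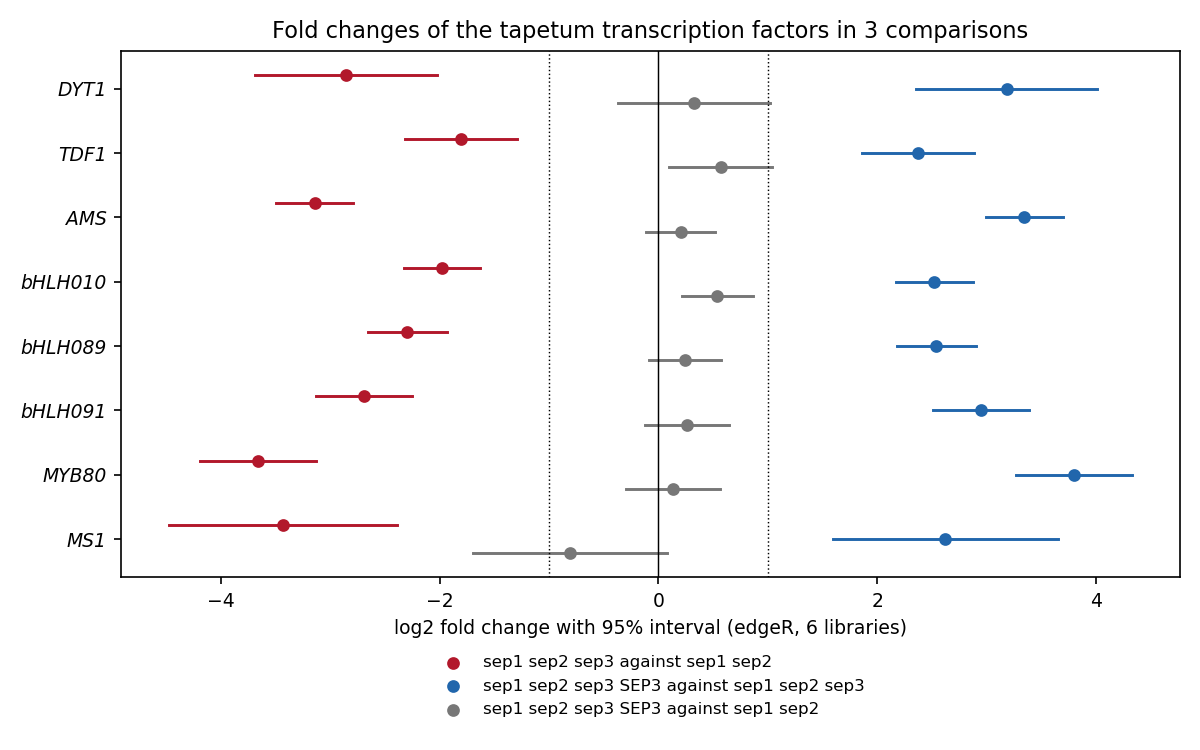
Log2 fold change of each member in the 3 comparisons, with bars showing the 95% interval from the edgeR standard error and dotted lines at -1 and 1. The first comparison lies below 0 and the second above 0 for all 8 members, while in the third 6 of 8 intervals include 0.

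The same question was asked of the lines in which SEP3 was added to sep1 sep2 sep3. All 8 members rose relative to the libraries labelled triple mutant, by 5.20-fold (TDF1) to 13.7-fold (MYB80) in mean CPM, and all 8 were DE higher, as were 5.74% of all genes tested. The median log2 fold change was 2.79, against 0.02 for all genes tested. This comparison shares the 2 libraries labelled triple mutant with the first, so the 2 comparisons are not independent. AMS rose by 3.35 (SE 0.165, edgeR adjusted p = 2.32e-08), MYB80 by 3.80 (SE 0.247, adjusted p = 1.31e-07) and DYT1 by 3.18 (SE 0.388, adjusted p = 5.37e-05), all on the log2 scale. The trio rose by 2.52 (bHLH010, SE 0.164), 2.54 (bHLH089, SE 0.169) and 2.95 (bHLH091, SE 0.204), and TDF1 by 2.38 (SE 0.238), with edgeR adjusted p = 1.31e-07, 1.52e-07, 2.06e-07 and 8.00e-06. All 8 members had groups that did not overlap, as did 50.1% of all genes tested.

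MS1 was again the weakest call, rising by 2.62 on the log2 scale (SE 0.481, edgeR adjusted p = 0.00186). The call was lost without the second library labelled triple mutant (log2 fold change 2.02, adjusted p = 0.0505) and with limma-voom (2.68, adjusted p = 0.0887), and without line 1 the log2 fold change was 1.46 (adjusted p = 0.0434).

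The third comparison asked how far the lines returned to sep1 sep2. No member was DE by edgeR, as against 1.5% of all genes tested, and 2 of 8 had an unadjusted p under 0.05, while DESeq2 and limma-voom also called none. bHLH010 was 0.54 higher on the log2 scale in the lines (95% interval 0.22 to 0.86, edgeR adjusted p = 0.0618) and TDF1 0.57 higher (0.10 to 1.04, adjusted p = 0.180), and only these 2 had groups that did not overlap, as did 44.9% of all genes tested. AMS was 0.20 higher (-0.11 to 0.52) and MYB80 0.13 higher (-0.29 to 0.56). The log2 differences were 0.33 for DYT1 (-0.37 to 1.02), 0.24 for bHLH089 (-0.08 to 0.57) and 0.26 for bHLH091 (-0.12 to 0.64). The log2 difference of bHLH010 ranged from 0.35 to 0.78 over the alternative settings, and it was not DE in any of them. In the main fit it was not called without the fold threshold either, where its edgeR adjusted p was again 0.0618. In at least 1 alternative setting it passed the limit on adjusted p and missed only the fold limit. The interval of MS1 was the widest, at -1.70 to 0.08 around a log2 difference of -0.81. Without line 1 that difference was -1.97 (adjusted p = 0.0217) and MS1 was DE, and without line 2 it was -0.19.

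**Figure D3:**
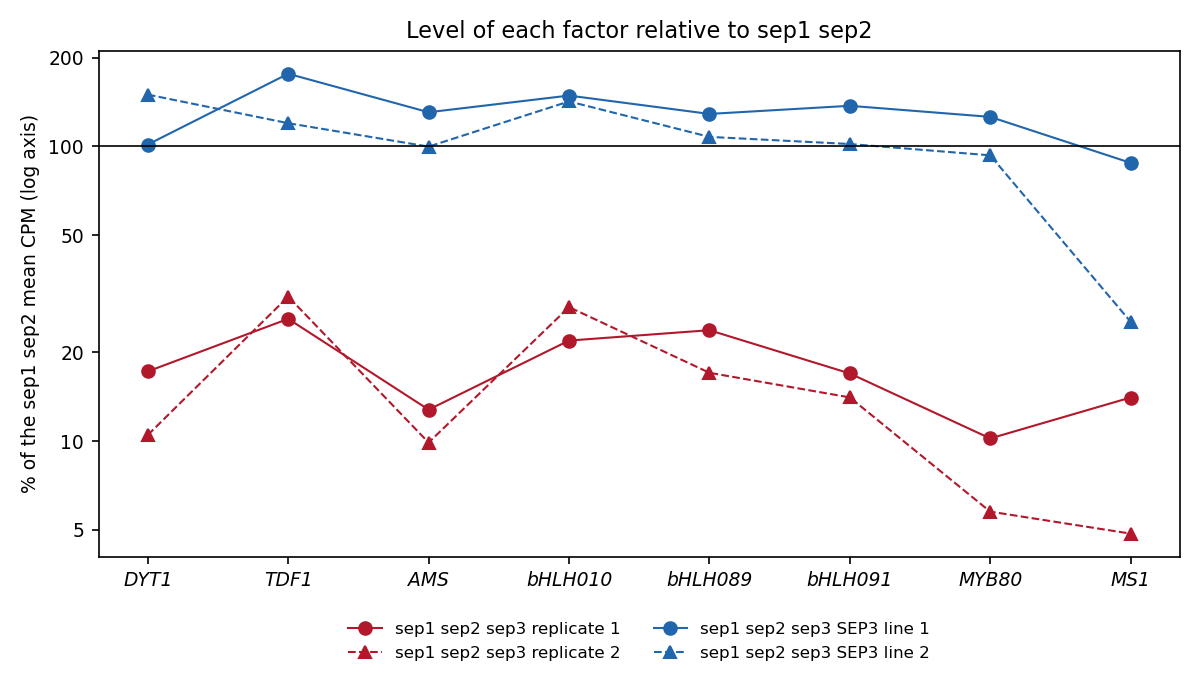
Level of each member in each library labelled triple mutant and in each line, as a percentage of its mean CPM in sep1 sep2 on a log axis, with lines joining the values of 1 library. The triple mutant points range from 4.86% (MS1) to 30.9% (TDF1), and line 2 is at 25.4% for MS1 but at 93.3% to 150% for the other 7 members.

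Each line was 1 library, so the difference between them has no test. Line 2 was below line 1 for 7 of 8 members, with a median log2 difference of -0.41 and a range from -1.78 (MS1) to 0.55 (DYT1). Over the 18703 genes that averaged 1 CPM or more, the median was 0.01 and the middle 90% lay between -0.61 and 0.48. MS1 was the single member more than 2-fold lower in line 2, as were 2.17% of those genes. The replicate pairs set the scale for this. In sep1 sep2, replicate 2 minus replicate 1 was -0.19 to 0.52 for the 8 members, with 1 of 8 lower and a median of 0.35. Between the libraries labelled triple mutant it was -1.48 to 0.37, with 6 of 8 lower and a median of -0.42, so the median difference between the lines was no larger than that between these replicates. The genes that act in the tapetum after the cascade were lower in line 2 for 15 of 15, with a median of -1.08, and 8 of 15 were more than 2-fold lower. Of the same 15, 13 were lower in the second library labelled triple mutant than in the first, with a median of -0.37, and 2 of 15 were more than 2-fold lower. The SEP3 level was also lower in line 2, at 332 CPM against 489 CPM, and SEP2 was higher; the part of either in these differences was not tested.

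**Figure D4:**
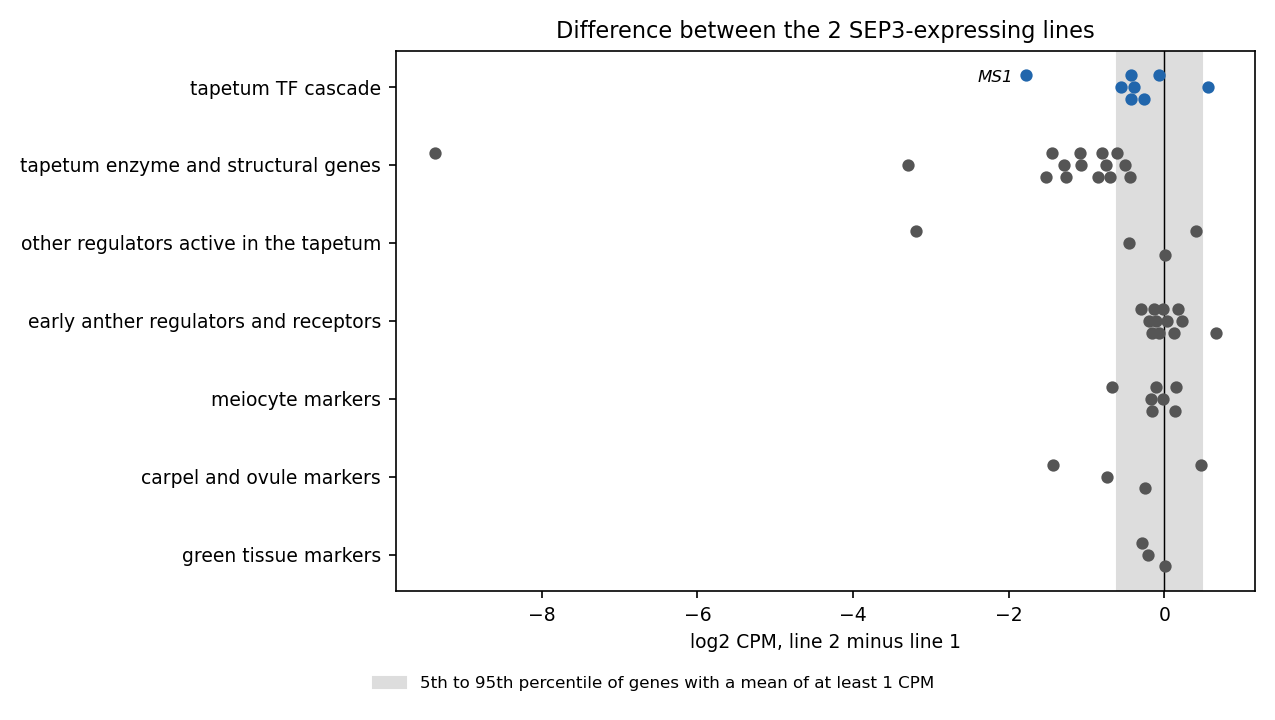
Line 2 minus line 1 in the log2 CPM of each gene of 7 lists that averaged 1 CPM or more, 1 point per gene with the members in blue, and the middle 90% of the 18703 genes as a grey band from -0.61 to 0.48. Of the members, MS1 lies below the band and DYT1 above it. All 15 enzyme and structural genes lie below 0, and the farthest of them, LTP12, had 0 counts in line 2, so its place depends on the prior count. Genes of other lists also lie outside the band, MYB99, STK, SHP2 and MMD1 below it and ROXY2 above it.

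Among the members, levels per kilobase of exon were led by AMS in every genotype. In sep1 sep2 it stood at 94.5 CPM per kb, followed by bHLH010 (26.03), bHLH089 (21.2) and MYB80 (19.5), then bHLH091 (13.4), MS1 (12.7), TDF1 (9.09) and DYT1 (6.21). The replicate values of bHLH010 and bHLH089, of bHLH089 and MYB80, and of bHLH091 and MS1 overlapped, whereas those of the other neighbours in that order did not. AMS made up 46.6% of the summed level per kilobase of the 8 members in both sep1 sep2 libraries, and 37.4% and 34.03% in those labelled sep1 sep2 sep3. The order below AMS shifted in these: MYB80 fell behind TDF1 and bHLH091, at 1.56 CPM per kb against 2.59 and 2.08. The replicate values of MYB80 there overlapped with those of bHLH091 but not with those of TDF1. In the lines MS1 was last, at 7.21 CPM per kb, with DYT1 next above it at 7.80 CPM per kb and the values of both lines for DYT1 within the range of MS1.

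The genes on which the cascade acts moved in the same direction. The 15 tapetum enzyme and structural genes were all DE lower in the libraries labelled triple mutant, with a median log2 fold change of -3.88, and all DE higher in the lines against those libraries, with a median of 3.54. A9, a small tapetum-specific protein, was at 185 and 246 CPM in sep1 sep2, at 20.01 and 9.09 CPM in the libraries labelled triple mutant, and at 229 and 150 CPM in lines 1 and 2. The callase-related glucanase A6 was at 782 and 835, 75.8 and 72.7, and 819 and 471 CPM. MS2, a fatty acyl reductase of sporopollenin synthesis, was at 354 and 368, 25.3 and 12.1, and 352 and 147 CPM. These 3 defining markers were therefore present in every library, at their lowest in the libraries labelled triple mutant. UPEX1, a galactosyltransferase needed for pollen wall pattern, changed least of the 15, by -2.79, and LTP12, a lipid transfer protein, was at 119 and 59.3 CPM in sep1 sep2, at only 4 and 2 counts among the libraries labelled triple mutant, and at 49.8 CPM in line 1 and 0 counts in line 2. None of the 15 was DE between the lines and sep1 sep2, as against 1.5% of all genes tested. Their log2 fold changes there had a median of -0.34 and ranged from -1.82 (LTP12) to 0.098 (UPEX1).

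Of 5 further regulators of the tapetum, 4 were tested, since TEK, an AT-hook protein of nexine formation, had 0 counts in all 6 libraries. MYB99, which acts downstream of MS1, was at 19.7 and 28.5 CPM in sep1 sep2, at 0.919 and 0.543 CPM in the libraries labelled triple mutant, and at 24.3 CPM in line 1 but 2.58 CPM in line 2. It was DE lower (log2 fold change -5.06, edgeR adjusted p = 2.83e-04) and DE higher in the second comparison (4.23, adjusted p = 0.00145). MYB33, MYB65 and ARF17 were not DE in any comparison, and MYB33 changed least in the first, by -0.10. ARF17 missed only the fold limit in the first comparison (-0.89, edgeR adjusted p = 8.13e-04) and in the second (0.89, adjusted p = 9.38e-04). In the second, MYB65 (0.97, edgeR adjusted p = 0.00446) and MYB33 (0.53, adjusted p = 0.0221) also missed only that limit.

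Upstream of the cascade, 4 of 12 early anther regulators and receptors were DE lower and 8 were not, with a median of 0.25. The 4, named after their values were seen, were SPL, the nuclear protein required to form sporogenous cells (-2.31), the bZIP proteins TGA9 (-2.49) and TGA10 (-1.71), and the glutaredoxin ROXY2 (-2.44). They were also DE higher in the second comparison, by 2.71, 2.79, 2.19 and 2.43 in that order. EMS1, the receptor kinase that specifies the tapetum, was not DE, at 76.9 and 81.7 CPM in sep1 sep2, 66.1 and 68.7 CPM in the libraries labelled triple mutant and 103 and 116 CPM in lines 1 and 2. EMS1 missed only the fold limit in the second comparison (0.70, edgeR adjusted p = 4.12e-04) and in the third (0.47, adjusted p = 0.0253). JAG, which promotes organ growth, had the most positive log2 fold change of this list, 0.93, and was not DE. It missed only the fold limit (edgeR adjusted p = 0.00133), as did BAM2 (0.60, adjusted p = 0.00236) and SERK2 (0.43, adjusted p = 0.0174). The rest of the 8 passed neither limit in the first comparison.

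**Figure D5:**
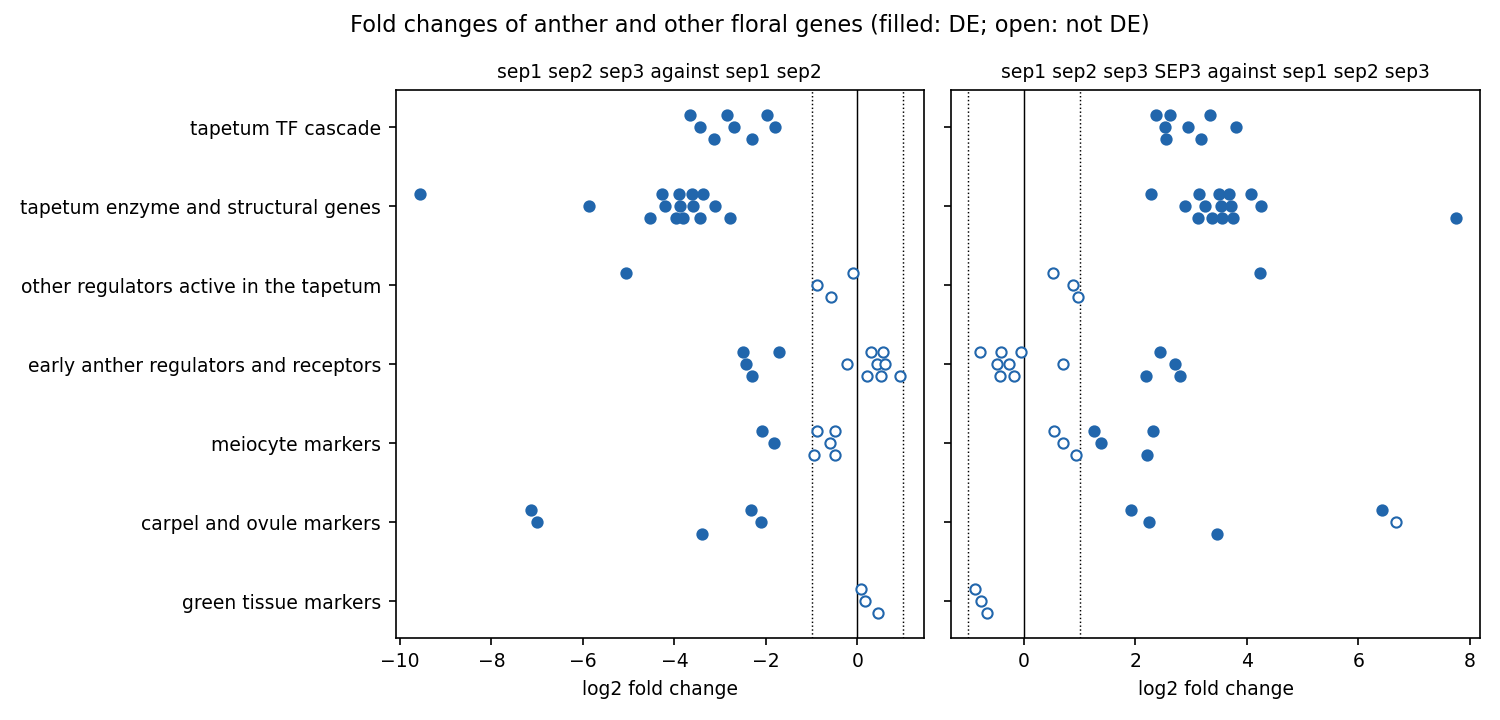
Log2 fold change in sep1 sep2 sep3 against sep1 sep2 and in the lines against sep1 sep2 sep3 for each tested gene of 7 lists, filled where DE and open where not, with dotted lines at -1 and 1. The cascade and the 15 tapetum enzyme and structural genes lie wholly below 0 in the first comparison and above 0 in the second. So do the other tapetum regulators, the meiocyte markers and the carpel and ovule markers, though not all of their genes are DE. Genes with a few counts or none in 1 genotype, such as LTP12, have fold changes that depend on the prior count.

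Markers of other cell types of the bud gave a mixed picture by the same call, where a gene that was not DE may still have changed by less than 2-fold. The stamen and petal identity genes AP3 (log2 fold change -0.03, edgeR adjusted p = 0.906) and PI (-0.53, adjusted p = 0.00844) were not DE. Of 7 meiocyte markers, 2 were DE lower, ASY1 (-1.83) and MMD1 (-2.08), with a median of -0.88, and SDS (-0.49) changed least. DMC1 (-0.50, edgeR adjusted p = 0.0203) and TAM (-0.59, adjusted p = 0.0450) missed only the fold limit. SDS, SPO11-1 and SWI1 were lower too but passed neither limit. In the second comparison 4 of the 7 were DE higher. MYB26, which directs endothecium wall thickening, was DE lower (-3.66), on 2 and 8 counts in the libraries labelled triple mutant. The other 2 genes of that list were not DE, but NST2 had at most 6 counts in a library. NST1 was at 1.41 to 2.10 CPM. All 5 carpel and ovule markers were DE lower, with a median of -3.39. CRC, a carpel identity gene, changed least (-2.11), and INO, an ovule integument gene, had 12 and 20 counts in sep1 sep2 and 0 in both libraries labelled triple mutant. In that list, 4 of 5 were DE higher in the second comparison. The green tissue markers RBCS1A, CAB1 and RCA were not DE, with a median of 0.16. They summed to 10355 and 9447 CPM in the lines against 16008 and 17091 CPM in the libraries labelled triple mutant. Their log2 fold changes in the second comparison were -0.67, -0.78 and -0.87, with edgeR adjusted p = 0.00217, 3.47e-04 and 0.00103. The study lists CRC, SHP1 and SHP2 of the carpel list, and SPL, among genes bound and regulated by SEP3 and its partner AGAMOUS. For SHP2 and SPL it found binding both in plants, by ChIP-seq, and in vitro with the purified complex. It lists CRC and SHP1 as bound in ChIP-seq only. Whether these changes reflect tissue make-up, and what part that has in the values of the members, was not tested.

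The gene most like the mean profile of the members over the 6 libraries, in centred log2 CPM, was UPEX1 (root mean square difference 0.0505), followed by BPC7 (AT2G35550), of a GAGA-binding family (0.0730), and sks18 (AT1G75790), of a multicopper oxidase-like family (0.0821). Likeness was measured among genes that averaged 1 CPM or more. The members themselves lay 0.0777 (bHLH091) to 0.709 (MS1) from that mean, and 417 of 18695 genes, or 2.23%, lay within 0.5 of it. By member, the nearest gene was GLYI7 for DYT1, AT5G60650 for TDF1, AT1G54240 for AMS, AT2G32350 for bHLH010, AT1G68200, a zinc finger protein gene, for bHLH089, sks18 for bHLH091, TIF3C2 for MYB80 and QRT1 (AT5G55590), a pectin methylesterase that separates pollen grains, for MS1, at distances of 0.0580 to 0.232. These likenesses rest on 6 libraries of 3 genotypes and are a description.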

How the data were processed

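Gene counts of 6 RNA-seq libraries were used. The deposited counts are, per the methods of the study, reads mapped to TAIR10 by STAR without multimapping and counted per gene by the authors with featureCounts at default parameters; no versions are given in the sources used here. Low counts of 1 to 20 were even in 85.9% to 88.3% of genes, so a count may not be 1 independent fragment, and counting errors are lower bounds. Comparison tables of the authors (log2 fold changes, CPM, F, p and FDR) were not used, and no column of other samples was present.

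CPM is counts per 1000000 of the library total scaled by its TMM factor. Genes counted in 1 or more libraries were fitted in one edgeR 4.0.16 quasi-likelihood model (R 4.3.3, TMM factors, genotype means), with Benjamini-Hochberg adjustment over 25458 genes, prior count 0.125; adjusted p is that value. On simulated counts the fit recovered nearly all changed genes. False calls were few when gene dispersions followed the fitted trend, but exceeded the nominal rate when dispersions varied gene by gene, so calls near the threshold are less certain than their adjusted p. Alternatives used limma 3.58.1 and DESeq2 1.42.0. p-values measure the spread between these libraries, which may be technical. Genes named: the 8 members, genes with the largest and smallest log2 fold change of a list in the first comparison (not all such genes are printed), A9, A6, MS2, the SEP genes, and the genes most like the members; the rest were named after their values were seen. The members and lists were chosen with earlier results of these data known. Sequences and coordinates come from the RefSeq TAIR10.1 genome and annotation.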

Additional observations from a re-analysis of the deposited data

How the results depend on the processing

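The calls of the 8 members were recomputed under 14 alternative settings, with 8 of 8 DE lower in sep1 sep2 sep3 under all 14. Against sep1 sep2 sep3, the lines had 8 of 8 DE higher under 12 settings and 7 under limma-voom and without the second library labelled triple mutant, MS1 being the loss. The comparison of the lines with sep1 sep2 called 0 members, except 1 without line 1, which is MS1 (log2 fold change -1.97). Leaving out line 1 also reversed AMS to -0.0023 and MYB80 to -0.10 there, and over the libraries left out they ranged from -0.0023 to 0.38 and from -0.10 to 0.33, neither past the threshold in any setting. Leaving out 1 library at a time gave 8 members DE each time in the first comparison, 7 to 8 in the second and 0 to 1 in the third. Over all genes, the third comparison moved by over 1.5 times, with 383 calls in the main fit against 131 by limma-voom, 164 with the stricter filter on low counts, 245 with the replicate block and 198 without sep1 sep2 replicate 1. Without the fold threshold, 4020, 3174 and 1050 genes passed. Without the second library labelled triple mutant the first comparison called 1376 genes against 2098 and the second 1062 against 1601. Replicate numbers were fitted as a block too: it called 8, 8 and 0 members, and the correlations of the differences between replicates, -0.085, -0.034 and 0.050, give no sign that the numbers pair the libraries. Counting depth limits DYT1 most, at 12 to 144 counts.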
